A study of Mus musculus with 2 samples.

Results

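Microglial identity and activation genes were followed across the cell classes of a mouse eye section: Csf1r, Csf1, Il34, Cx3cr1, Trem2, Tyrobp, Cd68, Itgax, Spp1 and Lgals3. These 10 genes were chosen by symbol from the 32285 features of the expression matrix, and each symbol matched 1 row. The tissue was fresh-frozen retina of mice on the C57BL/6J background, cut at 10 µm and placed on a SeekSpace chip, which gives each nucleus an RNA profile and a position. The study set heterozygous Prph2C213Y/+ mice against wild types matched for age and sex, with spatial data at 6 months. The 2 libraries analysed here, an expression and a spatial-barcode library both named T1, come from 1 eye, carry no genotype label and have no treatment given. No groups could be compared, no genotype was inferred, and no p-value is given.

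Of 17285 barcodes, none seen more than once, 16867 nuclei were kept, with a median of 1811 UMIs (counted RNA molecules) and 1042 genes. On the chip they formed 4 ring-shaped pieces side by side, although the labels describe 1 section of 1 eye. Besides 5775 rod-like and other retinal nuclei, the tissue labelled retina held skeletal muscle-like, adipocyte-like and lens-like nuclei (443, 262 and 228). Clusters of nuclei were named from marker genes as classes, "rod-like" and so on. None of the 10 genes was a marker and none entered the clustering. Each level is pooled over a class, in UMIs per 1000000 UMIs of that class (CPM), with a 95% Poisson interval in brackets, and is compared between classes within a gene. Nuclei are not replicates, and all intervals cover the counting error of 1 library only.

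Microglia are the resident macrophages of the retina, where they lie mainly in the plexiform layers and survey neurons. Their survival depends on the receptor tyrosine kinase CSF1R, which has the ligands CSF1 and interleukin 34. CX3CR1 receives fractalkine from neurons. The lipid receptor TREM2 signals through its adaptor DAP12, encoded by Tyrobp, and in mouse models of neurodegeneration it is needed for a state in which Itgax, Spp1 and Lgals3 rise while genes of resting microglia fall. The retinal pigment epithelium (RPE) borders the outer retina, and the choroid behind it holds macrophages of its own.

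The promoters of 4 of the genes highest in microglia or macrophage-like nuclei are shown, since these genes share a class and could be compared for shared short sequences. Each is the 250 bases before a RefSeq start in GRCm38.p6, written 5′ to 3′ on the strand of the gene. The Itgax window precedes a start inside the gene as annotated (from 128129526), so its end lies within the gene. Capitals mark GAGGAA, a core bound by the myeloid factor encoded by Spi1, and TGAGTCA, the AP-1 element, on either strand (TTCCTC and TGACTCA).
Trem2 promoter, chr17:48346151-48346400, plus strand: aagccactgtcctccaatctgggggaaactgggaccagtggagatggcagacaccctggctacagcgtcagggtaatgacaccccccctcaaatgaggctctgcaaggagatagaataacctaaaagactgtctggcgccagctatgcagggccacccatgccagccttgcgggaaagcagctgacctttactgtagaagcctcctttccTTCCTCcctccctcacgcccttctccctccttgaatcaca
Cd68 promoter, chr11:69666171-69666420, minus strand: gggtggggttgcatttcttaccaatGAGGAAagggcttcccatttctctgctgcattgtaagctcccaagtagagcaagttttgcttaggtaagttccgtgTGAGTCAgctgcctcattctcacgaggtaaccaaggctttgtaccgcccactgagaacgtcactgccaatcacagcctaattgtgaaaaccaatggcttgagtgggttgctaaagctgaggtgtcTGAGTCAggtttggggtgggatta
Itgax promoter, chr7:128129300-128129549, plus strand: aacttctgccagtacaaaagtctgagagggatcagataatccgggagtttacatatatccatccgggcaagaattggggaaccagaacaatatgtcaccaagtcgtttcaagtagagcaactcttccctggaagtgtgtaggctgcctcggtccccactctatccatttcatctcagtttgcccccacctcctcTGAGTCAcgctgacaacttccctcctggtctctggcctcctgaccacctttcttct
Cx3cr1 promoter, chr9:120068297-120068546, minus strand: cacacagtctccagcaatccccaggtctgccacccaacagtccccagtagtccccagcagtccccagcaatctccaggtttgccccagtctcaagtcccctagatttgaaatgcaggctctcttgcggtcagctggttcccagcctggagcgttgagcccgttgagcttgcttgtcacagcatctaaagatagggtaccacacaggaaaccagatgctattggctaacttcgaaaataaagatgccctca
GAGGAA or its reverse stood in 23.3% of 32851 promoter windows of this length, and in 3 of 8 windows of the 10 genes, those of Cd68, Trem2 and Spp1. TGAGTCA stood in 4.46% of all windows and in 2 of 8, those of Cd68 and Itgax. Cx3cr1 held neither. A match is a description of letters and not of binding. GAGGAAGT (2.44% of all windows), AGGAAGT (7.69%) and TATAAA (12.4%) were also searched, and each was found in 1 of the 8, a window of Spp1. GGAAGT, which lies inside both AGGAAGT and GAGGAAGT, stood in 19.7% of all windows and in 2 of the 8, those of Itgax and Spp1. Of the 10 genes, 7 had entries, Spp1 with 2 windows. Csf1r, Il34 and Tyrobp are named only.

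The microglia or macrophage-like class, called myeloid for short, held 424 nuclei, or 2.51% of those kept, with a median of 1684 UMIs. All 15 of its markers were detected, and together they stood at 9366 CPM. Ptprc, the pan-leukocyte phosphatase, reached 763 CPM and Dock2, a guanine exchange factor of blood cells, 1767 CPM. Besides Dock2, its leading genes were F13a1, Cd74, Igkc and Igha, of which the last pair are immunoglobulin genes. It therefore held more than microglia: sub-clusters were T cell-like (46 nuclei) and B cell-like (24 nuclei). In the other named classes the same 15 markers summed to between 16.5 CPM, in cone-like nuclei, and 1232 CPM, in surface epithelium-like nuclei.

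Class-high means that the interval of the highest class began at 2 times or more the end of the interval in each other named class. All 10 genes had the 20 UMIs required, and 7 were class-high, against 10.3% of all genes with enough UMIs. Csf1r, Cx3cr1, Trem2, Tyrobp, Cd68 and Itgax were class-high in microglia or macrophage-like nuclei, where 1.73% of all genes were. With nuclei thinned to 500 UMIs only Csf1r of these 6 kept the call, and with a rule of 3 times Csf1r and Cd68 lost it. Il34 was class-high in mixed vascular nuclei, where 0.155% of all genes were. Csf1, Spp1 and Lgals3 were class-high nowhere, and had their highest levels in fibroblast-like, melanocyte-like and surface epithelium-like nuclei. The median ratio of these interval ends was 2.54 for the 10 genes and 0.741 for all genes measured.

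**Figure D1:**
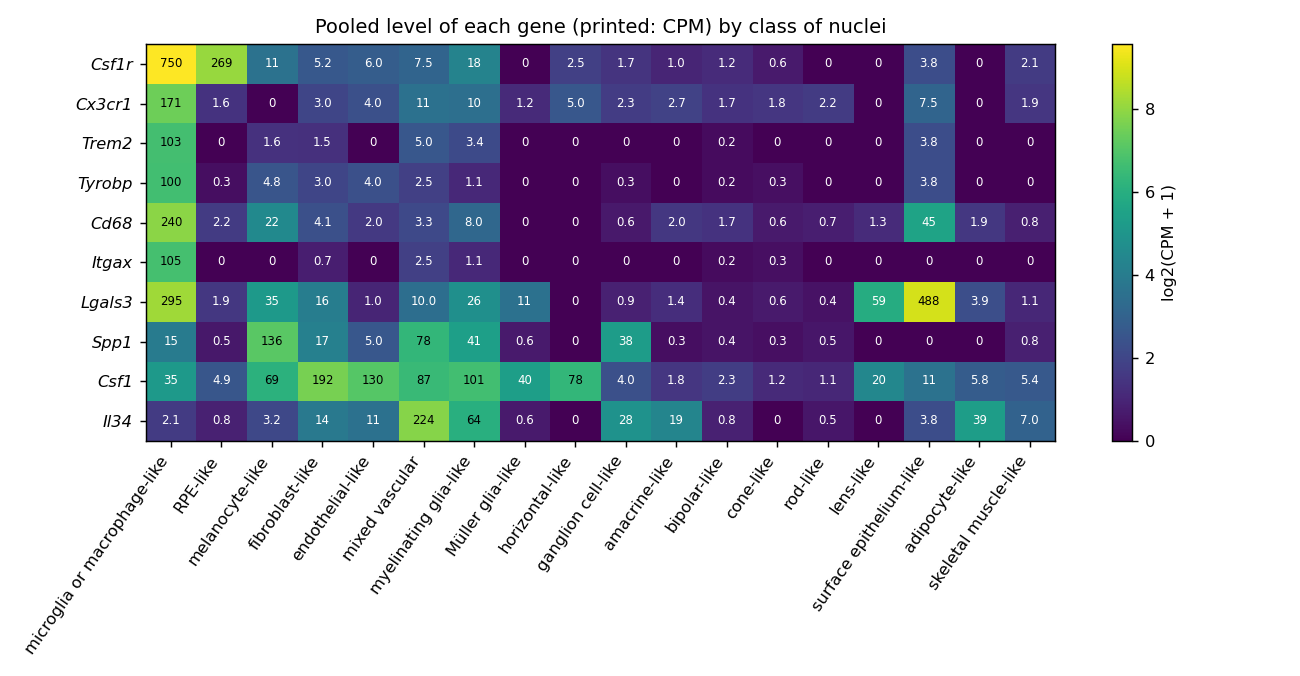
Level of each of the 10 genes (rows) in each of 18 named classes (columns), as CPM pooled over the nuclei of a class, with colour on a log2(CPM + 1) scale. Csf1r stands out in microglia or macrophage-like (750.5 CPM) and RPE-like nuclei (269 CPM), and Spp1 in melanocyte-like nuclei (136 CPM) rather than in microglia or macrophage-like ones (14.9 CPM).

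Csf1r (chr18:61105572-61131139) had 1792 UMIs. Its level was 750.5 CPM (696.1 to 808.0) in microglia or macrophage-like nuclei and 269 CPM (253 to 287) in RPE-like nuclei. The next class, myelinating glia-like nuclei, stood at 18.4 CPM. The RPE-like class, with more nuclei and deeper ones, held the larger part of the receptor's UMIs, 982 or 54.8%, and microglia or macrophage-like nuclei held 705 or 39.3%. In rod-like nuclei there were 0 UMIs, which allows up to 0.365 CPM, and there were 0 in Müller glia-like nuclei, which allows up to 1.81 CPM.

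At least 1 Csf1r UMI was found in 54.0% of microglia or macrophage-like nuclei (median 1684 UMIs) and in 49.8% of RPE-like nuclei (median 2939 UMIs). In ganglion cell-like nuclei, which are deeper still at a median of 6950 UMIs, the share was 1.22%. With each nucleus thinned to 500 UMIs, it was 30.8% of 396 microglia or macrophage-like nuclei, 13.1% of 618 RPE-like nuclei (10.55 to 16.03%) and 0 of 467 ganglion cell-like nuclei, which allows up to 0.642%. This left out 28, 41 and 25 shallower nuclei. The RPE level was therefore above that of every retinal class, and below that of the myeloid class.

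Markers of microglia and macrophages were nearly absent from the RPE-like nuclei that carried Csf1r. The 15 markers summed to 46.9 CPM in RPE-like nuclei and 9366 CPM in microglia or macrophage-like nuclei. Ptprc, C1qa, Ly86 and Siglech were at 0 in RPE-like nuclei. Trem2, Itgax and the myeloid transcription factor Spi1 also had 0 UMIs there, Tyrobp 1, Cx3cr1 6 and Cd68 8. In the 641 of 659 RPE-like nuclei without a UMI of 12 of the 15 markers, Csf1r stood at 266 CPM (249 to 284.5), close to the level of the whole class. Those 12 were chosen after the levels had been seen. Of 328 RPE-like nuclei with Csf1r, 315 lacked all 12.

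The RPE level was alike in both clusters of the class, at 274 CPM in the 363 deeper nuclei (median 5642 UMIs) and 233 CPM in the 296 shallower ones (median 1005 UMIs), with overlapping intervals. It was also alike by position: 265 CPM among retinal neighbours and 279.7 CPM elsewhere. Over the 4 pieces it was 272.5, 291, 273 and 248 CPM, with intervals that all overlapped. Across the 18 classes, the genes with the pattern most like Csf1r among 13560 were Ctsa (r = 0.89), Ctsd (r = 0.868), both lysosomal enzymes, and the carboxylate transporter Slc13a3 (r = 0.864). Ctsd and Slc13a3 were highest in RPE-like nuclei and next in microglia or macrophage-like ones. These correlations are descriptions over classes of 1 library.

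Csf1 (chr3:107741048-107760469, minus strand) came mostly from stroma and vessels. Its level was 192 CPM (175.5 to 209) in fibroblast-like nuclei, 130 CPM (109 to 155) in endothelial-like, 101 CPM in myelinating glia-like, 87.3 CPM in mixed vascular, 78.3 CPM in horizontal-like and 68.7 CPM in melanocyte-like nuclei. Müller glia-like nuclei stood at 39.75 CPM (30.7 to 50.6) and microglia or macrophage-like nuclei at 35.1 CPM (24.2 to 49.3). Fibroblast-like nuclei stood above all other classes beyond counting error, while the intervals of the next 3 classes each overlapped that of their neighbour in this order. Of the gene's 1249 UMIs, 41.55% lay in fibroblast-like nuclei, which held 4.96% of all UMIs.

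Retinal neurons contributed little Csf1. Rod, cone, bipolar, amacrine, horizontal and ganglion cell-like nuclei together held 6.57% of its UMIs (5.26 to 8.08%) against 50.07% of all UMIs. Horizontal-like nuclei, the interneurons that feed back to photoreceptors, were the exception: 29.6% of 54 nuclei had a Csf1 UMI (median 6926 UMIs), against 2.64% of ganglion cell-like nuclei (median 6950 UMIs). Thinned to 500 UMIs, the shares were 7.41% (2.06 to 17.9%) and 0 of 467, which allows up to 0.642%. An unnamed cluster with bipolar and Müller markers added 86 UMIs at 17.7 CPM.

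Fibroblast-like clusters differed in Csf1. The cluster led by Pi16, Adgrd1 and Gfpt2 reached 283 CPM (252 to 316) over 570 nuclei. The cluster led by Hs3st3a1, Tspan11 and Fbn2 stood at 139 CPM (120 to 161) over 814 nuclei, and the third, led by Angptl7 and Col12a1, at 81.4 CPM (49.7 to 126). Of the endothelial-like clusters, the one led by Vwf and Plvap stood at 165 CPM (136 to 198) and the one led by Cd300lg and Timp4 at 54.0 CPM (31.5 to 86.5). The genes most like Csf1 across classes were Sec24d (r = 0.925), Fam114a1 (r = 0.876) and Ston1 (r = 0.876).

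Il34 (chr8:110741829-110805949) had another source. Mixed vascular nuclei, with endothelial and pericyte markers side by side, stood at 224 CPM (198 to 252), followed by myelinating glia-like nuclei at 64.3 CPM (48.5 to 83.4) and adipocyte-like nuclei at 39.0 CPM (23.8 to 60.2). Ganglion cell-like nuclei stood at 27.9 CPM (22.7 to 34.0) and amacrine-like nuclei at 19.3 CPM (16.2 to 22.8), in order the next classes. Mixed vascular nuclei stood apart from myelinating glia-like nuclei, and from there on each class overlapped the one before it. Photoreceptors and Müller glia lacked it nearly entirely, at 0.487 CPM in rod-like nuclei, 0.602 CPM (1 UMI) in Müller glia-like nuclei and 0 UMIs in cone-like nuclei, which allows up to 0.919 CPM. The class-high call of Il34 was lost at clustering resolutions 0.5 and 2, with 15 components and with at least 500 genes per nucleus, and its level was 127.0 and 88.47 CPM where the mixed vascular class grew to 866 and 804 nuclei, at resolution 0.5 and with 15 components.

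Amacrine-like and ganglion cell-like nuclei held the next largest parts of Il34. Of 709 UMIs, mixed vascular nuclei held 37.9%, amacrine-like nuclei 19.5% and ganglion cell-like nuclei 13.8%. All retinal neurons together held 34.4% (30.9 to 38.0%) of Il34, against 6.57% of Csf1 and 50.07% of all UMIs. A UMI of Il34 was found in 16.7% of ganglion cell-like nuclei (median 6950 UMIs) and in 0.0693% of rod-like nuclei (median 1060 UMIs). Thinned to 500 UMIs, the shares were 1.28% (0.473 to 2.77%) and 0.018%. Within the amacrine-like class, the cluster led by Tnc and Adarb2 reached 35.1 CPM (25.9 to 46.5).

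Within mixed vascular nuclei, Il34 lay with some genes of the pericyte and smooth muscle list and not with others. A sub-cluster of 49 nuclei, with the pericyte receptor Pdgfrb at 2442 CPM and Flt1 at 1047 CPM, held Il34 at 632 CPM (480 to 817). Another of 34 nuclei, 33 of them with retinal surroundings, had Pdgfrb at 1586 CPM, Flt1 at 4742 CPM and Il34 at 394 CPM (312 to 491). A sub-cluster of 94 nuclei with endothelial genes, Flt1 at 7164 CPM, Cldn5 at 625 CPM and Pdgfrb at 84.9 CPM, had Il34 at 12.1 CPM (2 UMIs). None of the sub-clusters reached a name under the marker rule, and they were formed after the class levels had been seen. The 57 nuclei of a further sub-cluster, at 187 CPM, also carried melanocyte and myelinating glia markers, and whether these are mixed droplets was not tested. Endothelial-like nuclei outside this class had Il34 at 10.9 CPM (5.46 to 19.6). Grb14 (r = 0.886), Vwa1 (r = 0.848) and 9530026P05Rik (r = 0.825) were the genes most like Il34 across classes.

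**Figure D2:**
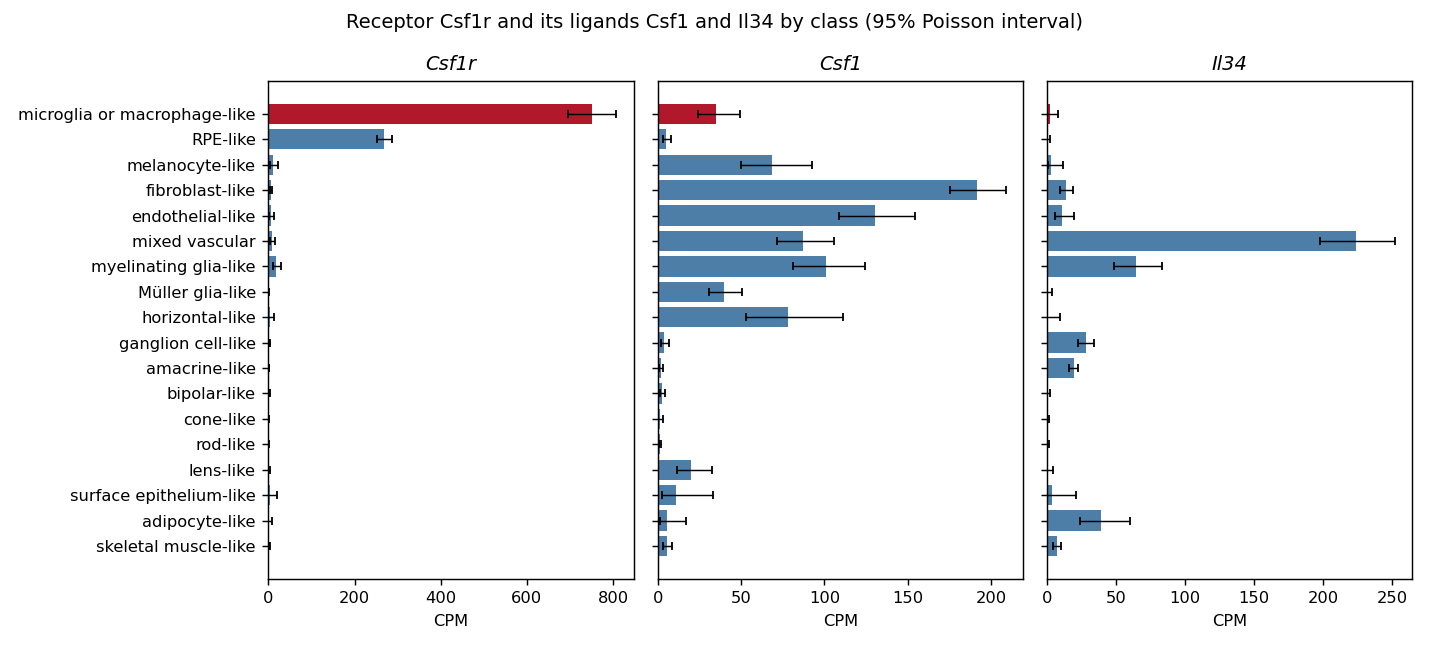
CPM of Csf1r, Csf1 and Il34 (panels) in each named class (rows), with bars from 0 and 95% Poisson intervals; microglia or macrophage-like nuclei are in red. The receptor is concentrated in 2 classes, Csf1 is spread over fibroblast-like (192 CPM), vascular and glial classes, and Il34 is led by mixed vascular nuclei (224 CPM).

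Both ligands were lower among retinal neighbours than elsewhere in the section. Nuclei with at least 50% of their 20 nearest nuclei in retinal classes had Csf1 at 13.7 CPM, against 54.2 CPM in other surroundings. For Il34 the values were 10.99 CPM and 19.8 CPM. The classes differ in share between these surroundings. Within fibroblast-like nuclei the Csf1 intervals overlapped, at 173 CPM (147 to 202) and 201 CPM (181 to 223). Within mixed vascular nuclei, pooled Il34 was higher in retinal surroundings, at 265 CPM (226 to 308), against 179.7 CPM (147 to 218) elsewhere. The share of these nuclei with an Il34 UMI went the other way. It was 27.2% (21.05 to 34.1%) of 191 nuclei in retinal surroundings and 49.5% (38.9 to 60.0%) of 93 elsewhere. Median depths were 1843 and 2169 UMIs. Gene models on the opposite strand overlap Csf1 (Gm40121) and Cx3cr1 (Gm33858), Il34 overlaps Gm15894, Gm39250 and Gm15895, and Csf1r overlaps Mir6983 and Gm52352. The sources used here give no strand setting for the counts, so the part of such reads in these levels was not tested.

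Cx3cr1 (chr9:120048683-120068296, minus strand), the fractalkine receptor, stood at 171 CPM (lower bound 146) in microglia or macrophage-like nuclei and at 10.8 CPM in mixed vascular nuclei, the next class. A UMI was found in 16.75% of microglia or macrophage-like nuclei (median 1684 UMIs), against 0.312% of rod-like nuclei (median 1060 UMIs) and 1.42% of ganglion cell-like nuclei (median 6950 UMIs). Its ligand gene Cx3cl1 was highest in some neuronal classes and in vascular ones. It stood at 227 CPM (211 to 243) in ganglion cell-like, 185 CPM (175 to 195) in amacrine-like and 98.6 CPM in bipolar-like nuclei. In endothelial-like and mixed vascular nuclei it stood at 119 and 118 CPM. Rod-like and cone-like nuclei were low, at 1.58 and 2.14 CPM, and horizontal-like nuclei stood at 27.8 CPM.

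The genes of the TREM2 receptor complex had most of their UMIs in the myeloid class. Trem2 (chr17:48346401-48352276) had 97 of its 114 UMIs there, at 103 CPM (83.7 to 126), and 4.99 CPM (6 UMIs) in mixed vascular nuclei. Tyrobp (chr7:30413782-30417582) had 94 of 118 UMIs there, at 100.1 CPM (80.9 to 122.5), and 4.79 CPM (3 UMIs) in melanocyte-like nuclei. Trem2 and Tyrobp were each found in 18.2% of microglia or macrophage-like nuclei. Neither had a UMI in rod-like nuclei, which allows up to 0.365 CPM.

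Cd68 (chr11:69664213-69666170), a lysosomal glycoprotein of phagocytes, stood at 239.5 CPM (209 to 273) in microglia or macrophage-like nuclei and at 45.1 CPM (12 UMIs) in surface epithelium-like nuclei. Itgax (chr7:128129526-128150657), the CD11c integrin subunit of dendritic cells and activated microglia, stood at 105 CPM (85.7 to 128) and at 2.50 CPM (3 UMIs) in mixed vascular nuclei, with 99 of 108 UMIs in the myeloid class. Both were nearly absent from retinal neurons, at 0.730 CPM and 0 UMIs in rod-like nuclei.

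Lgals3 and Spp1 were not highest in the myeloid class. Lgals3 (chr14:47373860-47386167), the galactose-binding lectin galectin-3, stood at 295 CPM (261 to 332) in microglia or macrophage-like nuclei, below the 488 CPM (408 to 579.8) of surface epithelium-like nuclei. It was found in 62.7% of 59 surface epithelium-like nuclei (median 2242 UMIs) and in 0.0519% of rod-like nuclei (median 1060 UMIs). The 15 myeloid markers summed to 1232 CPM in that class, with Ptprc, C1qb, C1qc, Mrc1, Ly86 and Siglech at 0, and their part in its Lgals3 was not tested. Lens-like nuclei stood at 59.3 CPM and melanocyte-like nuclei at 35.15 CPM. Of its 616 UMIs, the myeloid class held 44.97%, against 1.72% of all UMIs. With at least 500 genes per nucleus, Lgals3 was class-high in microglia or macrophage-like nuclei.

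Spp1 (chr5:104435111-104441053), the secreted phosphoprotein osteopontin, had 14.9 CPM (8.15 to 25.01) in microglia or macrophage-like nuclei, from 14 of 434 UMIs. Its highest levels were 136 CPM (108.5 to 168) in melanocyte-like and 78.2 CPM (63.2 to 95.7) in mixed vascular nuclei. In mixed vascular nuclei, 90 of 94 UMIs lay in the sub-cluster with melanocyte and myelinating glia markers. Ganglion cell-like nuclei held the largest share of its UMIs, 30.4%, at 37.6 CPM (31.5 to 44.6), in 6.10% of nuclei, against 0.0693% of rod-like nuclei, at median depths of 6950 and 1060 UMIs. Osteopontin is a known marker of alpha ganglion cells in mice. The integrin subunits that bind it were spread: Itga9 was class-high in melanocyte-like nuclei at 2876 CPM and Itgav in RPE-like nuclei at 866 CPM, while Itga4 was class-high in microglia or macrophage-like nuclei at 294 CPM.

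Other genes of the pathway separated by role. Of 12 signalling genes downstream of CSF1R and TREM2, 10 were class-high in microglia or macrophage-like nuclei and all 12 were highest there, among them Spi1 (330.0 CPM), the guanine exchange factor Vav1 (270.4 CPM) and the transcription factor Irf8 (201 CPM). Of 10 homeostatic genes, 5 were class-high there, among them the selectin ligand Selplg at 233 CPM, Fcrls at 104 CPM, the lectin Siglech at 61.7 CPM and the purine receptor P2ry12 at 85.2 CPM. Of all genes with enough UMIs, 1.73% were class-high in microglia or macrophage-like nuclei. The median ratios of interval ends were 5.10 and 1.98, against 0.741 over all genes.

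Genes of the disease-associated state were shared with other classes. Of 12 measured, 5 were class-high, against 10.3% of all genes, and of these only Ctsb, a lysosomal protease, was so in microglia or macrophage-like nuclei, at 1496 CPM, where 1.73% of all genes were. The median ratio of interval ends was 1.76. Ctsl (499 CPM) and Fabp5 (322 CPM) were class-high in lens-like nuclei, Gpnmb (2362 CPM) in melanocyte-like nuclei and the fifth gene in fibroblast-like nuclei. Cst7 had too few UMIs, and Clec7a was not found by symbol. Of 13 ligands and receptors that pair with the 10 genes, 5 were class-high, with a median ratio of 1.28, and Itgb2 (339.6 CPM) and Itga4 were so in microglia or macrophage-like nuclei. Ptprz1, another receptor of interleukin 34, was class-high in bipolar-like nuclei at 501.5 CPM.

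The myeloid class split into 7 sub-clusters, and the 10 genes, which were left out of that step too, differed between them. The microglia-like sub-cluster, led by Sall1, Nav3 and Siglech, held 25 nuclei. The macrophage-like one, led by Cd163, Timd4 and Lyve1, held 110. Sub-cluster 4, unnamed and led by Fn1, Lyz1, Flt3, S100a9 and Ccr2, held 88, with 52 of them in piece 4. Sub-cluster 5, unnamed and led by Ephb1, Atp6v0d2 and Gpnmb among others, held 105. Sub-cluster 7, 26 nuclei, carried rod markers at 12240 CPM.

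Among these sub-clusters, Cx3cr1 and Trem2 were highest in the microglia-like nuclei. Cx3cr1 stood at 1472 CPM (1162 to 1840.0) there, in 92.0% of nuclei, against 52.0 CPM (22.5 to 102.5) in macrophage-like nuclei and 151 CPM (112 to 199.7) in sub-cluster 5. Trem2 stood at 382 CPM (233.5 to 590.4), 52.0 CPM and 173 CPM (130.4 to 224) in the same order. Csf1r did not separate microglia-like from macrophage-like nuclei, at 1797 CPM (1452 to 2199) and 1483 CPM (1297 to 1688), but was lower in sub-clusters 4 and 5, at 603 and 583 CPM. In T cell-like nuclei it had 1 UMI and in B cell-like nuclei 0, in 46 and 24 nuclei.

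The activation genes were not highest in the microglia-like nuclei. Lgals3 had 0 UMIs in the microglia-like nuclei, which allows up to 57.4 CPM, and stood at 527 CPM (451 to 612) in sub-cluster 5, in 55.2% of nuclei, at 357 CPM in sub-cluster 4 and at 58.5 CPM in macrophage-like nuclei. Itgax stood at 154 CPM (114 to 203) in sub-cluster 5 and 142 CPM in sub-cluster 4, with 3 UMIs in microglia-like nuclei and 0 in macrophage-like nuclei, which allows up to 19.5 CPM. In T cell-like nuclei Itgax was at 167 CPM (80.1 to 307), from 10 UMIs in 5 nuclei, the highest level of the 7 sub-clusters, with an interval that overlapped those of sub-clusters 4 and 5. Cd68 was alike in macrophage-like nuclei and sub-clusters 4 and 5, at 306, 306 and 302 CPM, and stood at 95.6 CPM (31.0 to 223) in microglia-like nuclei. Tyrobp stood at 153 CPM (66.0 to 301) in microglia-like nuclei and 172 CPM in sub-cluster 4, with overlapping intervals.

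**Figure D3:**
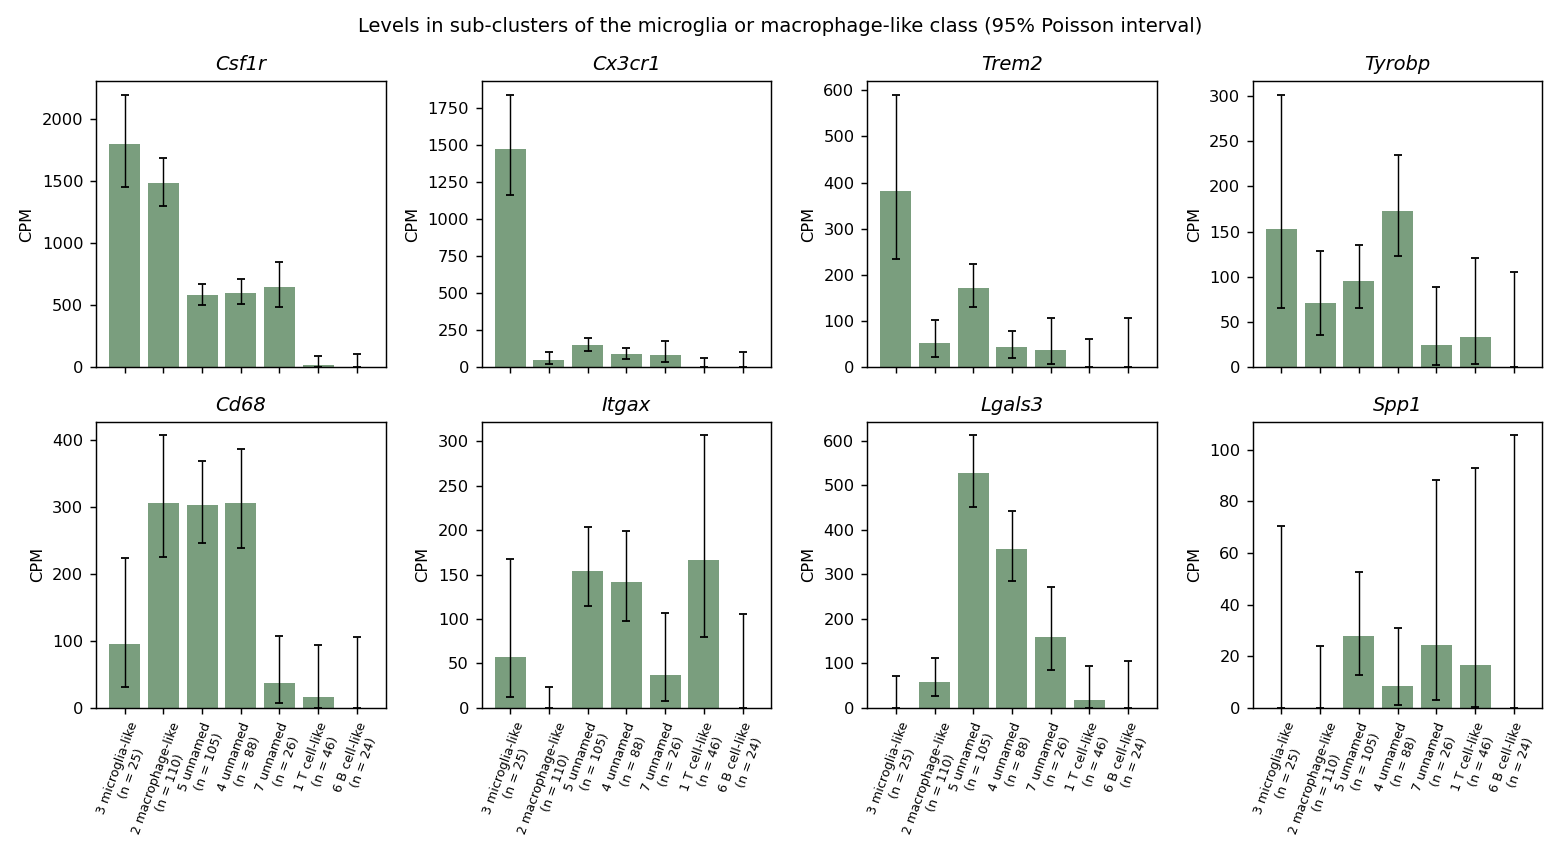
CPM of 8 genes (panels) in the 7 sub-clusters of the microglia or macrophage-like class (columns, with their numbers of nuclei), as bars from 0 with 95% Poisson intervals. Cx3cr1 (1472 CPM) and Trem2 (382 CPM) are highest in the microglia-like sub-cluster 3, and Lgals3 (527 CPM) in sub-cluster 5.

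Sub-cluster 5 lay along the RPE. Its nuclei were a median of 109 coordinate units from the nearest RPE-like nucleus, against 340 to 663 in the other 6 sub-clusters. RPE-like nuclei were 3.18 times and melanocyte-like nuclei 4.57 times as frequent among its neighbours as in the section, while ganglion cell-like nuclei were 0.0163 times as frequent. The microglia-like nuclei had other neighbours, with ganglion cell-like nuclei 4.05 times and amacrine-like nuclei 2.15 times as frequent as in the section, and 21 of 25 had retinal surroundings, against 72.9% of all kept nuclei. Nuclei of retinal classes were also scattered outside the rings, so retinal surroundings are a description of neighbours and not of a layer. The sources used here do not give the length of a coordinate unit.

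Markers of other cells moved with sub-cluster 5. All 9 melanocyte markers were present, at 1483 CPM in sum against 18730 CPM in melanocyte-like nuclei, and all 5 mast cell markers, at 447 CPM. Fibroblast markers summed to 1020 CPM, with 9 of 10 present, and RPE markers to 1282 CPM, with Slc16a8, Otx2, Stra6 and Cdh3 of 12 at 0. The 10 macrophage markers summed to 2201 CPM and the 10 microglia markers to 481 CPM, with 9 and 8 present. The melanosome gene Pmel stood at 206.5 CPM in sub-cluster 5 and 2280 CPM in melanocyte-like nuclei, while Gpnmb stood at 2004 and 2362 CPM. Csf1r and the macrophage gene Ms4a7 stood at 583 and 567 CPM in sub-cluster 5, and at 11.2 and 3.20 CPM (2 UMIs) in melanocyte-like nuclei. The part of these other cells in its levels was not tested.

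A finer split, made after these levels had been seen, divided sub-cluster 5. In a set of 32 nuclei, led by Gpr176, Ccbe1, Atp6v0d2 and Gpnmb, Lgals3 reached 989.5 CPM (806 to 1202), in 90.6% of nuclei, Itgax 313.5 CPM (214 to 443) and Cd68 441 CPM. Gpnmb was found in all 32. This set lay a median of 90.4 coordinate units from the RPE, and its melanocyte markers summed to 549 CPM, with Tyr and Oca2 at 0, and its mast cell markers to 9.80 CPM (1 UMI). A set of 59 nuclei, led by Rab27b, Cobl and the mast cell genes Kit and Cpa3, had Lgals3 at 395 CPM, Itgax at 70.2 CPM and Csf1r at 1053 CPM, with mast cell markers at 982 CPM. Cpa3 was found in 4 of these 59 nuclei. A last 13 nuclei carried melanocyte markers at 3054 CPM and Lgals3 at 225 CPM. RPE markers summed to 1479 CPM in the set of 32 and 1500.0 CPM in the set of 59. Trem2 stood at 235 CPM (151 to 350) in the set of 32 and 219 CPM (142 to 324) in the set of 59. Both intervals overlapped that of the 26 microglia-like nuclei of this split, at 369 CPM (225 to 569.5). In the set of 13 it was 65.6 CPM (26.4 to 135). Cx3cr1 stayed apart, at 78.4 CPM (33.8 to 154) and 316 CPM (221 to 437) in the sets of 32 and 59, against 1475 CPM (1170 to 1836) in those 26. The part of these other cells in the levels of the sets was not tested.

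**Figure D4:**
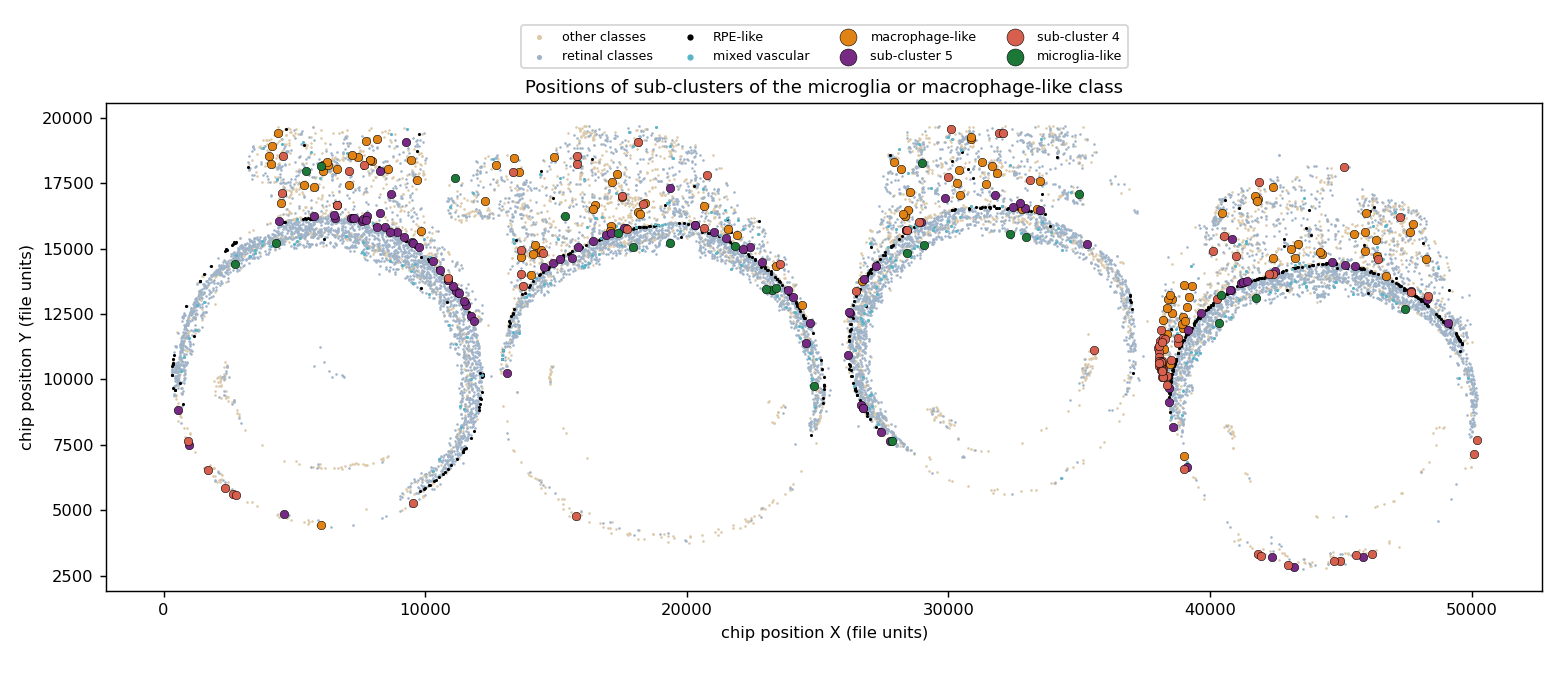
Positions of kept nuclei on the chip (both axes in the units of the deposited table), with 4 sub-clusters of the microglia or macrophage-like class as large points over retinal, RPE-like, mixed vascular and other nuclei. Sub-cluster 5 (median 109 units from the nearest RPE-like nucleus) lies beside the RPE-like nuclei in each of the 4 pieces, 21 of 25 microglia-like nuclei have retinal surroundings (72.9% of all kept nuclei do), and 52 of 88 nuclei of sub-cluster 4 are in piece 4.

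Most nuclei of the myeloid class had other than retinal neighbours: 150 of 424 (35.4%, 30.8 to 40.1%) had retinal surroundings, against 72.9% of all kept nuclei. Cx3cr1 was higher in those 150, at 325 CPM (265 to 394), against 94.3 CPM (71.8 to 122) in the others. Pooled Itgax was higher too, at 172 CPM (129 to 224), against 72.0 CPM (52.5 to 96.3). The shares of nuclei with an Itgax UMI overlapped, at 15.3% (9.98 to 22.1%) and 10.6% (7.20 to 14.85%). Those of Cx3cr1 did not, at 25.3% (18.6 to 33.1%) and 12.0% (8.44 to 16.5%). Median depths were 1654 and 1699.5 UMIs. Csf1r was at 777 CPM (682.5 to 881) and 737 CPM (671.5 to 808), and the intervals of Trem2, Tyrobp, Cd68 and Lgals3 also overlapped between these surroundings. Sall1 and Siglech, markers of microglia, were at 98.7 and 143 CPM among retinal neighbours and 3.20 and 20.8 CPM elsewhere. F13a1 and Mrc1, genes of tissue macrophages, were at 1016 and 627 CPM among retinal neighbours and 1639 and 932 CPM elsewhere. The macrophage gene Ms4a7 did not share this direction. It was at 261 CPM (208 to 324) among retinal neighbours and 224 CPM (188 to 264) elsewhere, with overlapping intervals.

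The 4 pieces carry no group label and are given side by side. Microglia or macrophage-like nuclei numbered 109, 99, 69 and 147 in pieces 1 to 4. Their Csf1r stood at 648, 716.5, 924.5 and 803 CPM, and the intervals of pieces 1 and 3 did not overlap. Cx3cr1 had the widest range of these genes, at 92.15, 232, 412 and 121 CPM, and was higher in pieces 2 and 3 than in pieces 1 and 4. The class was not made up alike: 45 of 99 and 43 of 69 of its nuclei had retinal surroundings in pieces 2 and 3, against 27 of 109 and 35 of 147 in pieces 1 and 4. Cd68 stood at 279.8, 129, 210.1 and 279 CPM, and Itgax at 52.7, 196, 118 and 96.1 CPM.

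The main sources of the ligands were set side by side in the same way. Fibroblast-like Csf1 stood at 194, 201, 191 and 182 CPM and amacrine-like Il34 between 16.2 and 24.6 CPM, with overlapping intervals throughout. Ganglion cell-like Il34 stood at 22.9, 25.8, 30.2 and 32.7 CPM, also with overlapping intervals. Mixed vascular Il34 differed, at 147, 315, 177 and 268 CPM, and piece 2 lay above pieces 1 and 3. Ganglion cell-like Spp1 stood at 80.8, 30.7, 26.9 and 14.0 CPM, and its interval in piece 1 lay above those of the other 3 pieces. Its 132 UMIs in this class lay in 30 of 492 nuclei, and Poisson intervals do not cover such clumping within nuclei.

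**Figure D5:**
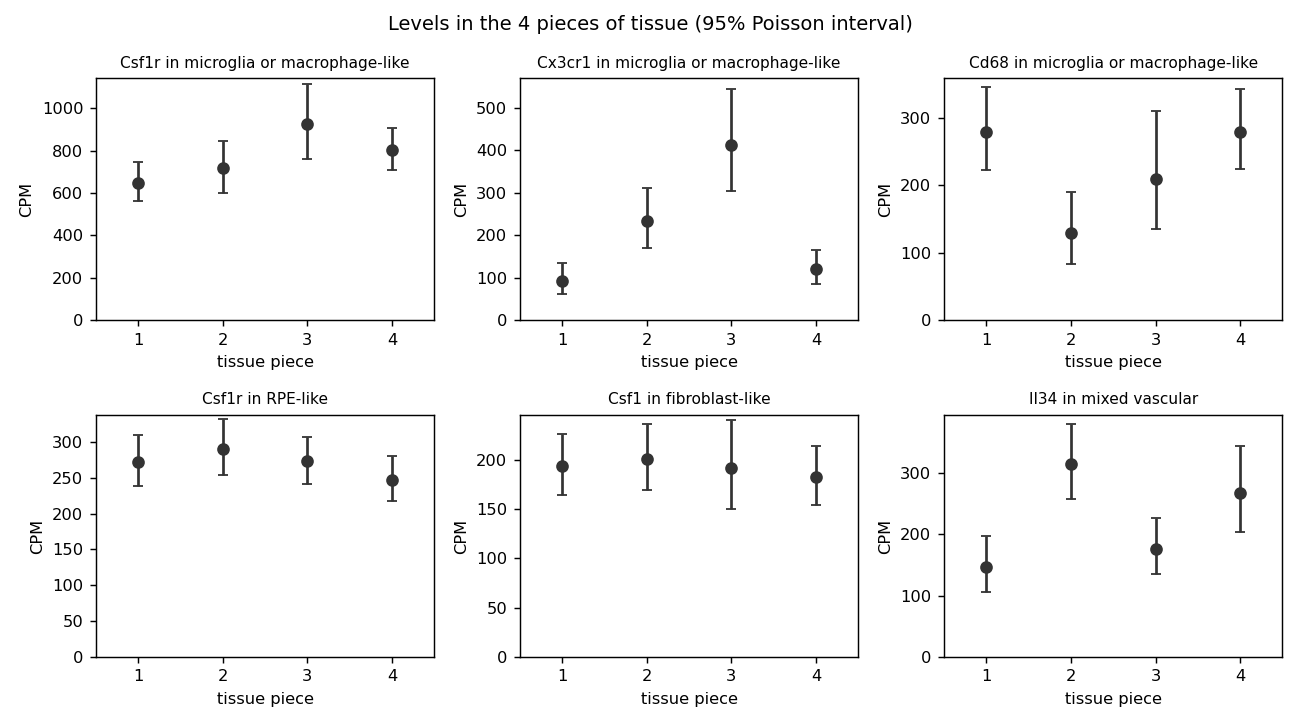
CPM of 6 gene and class pairs (panels) in the 4 pieces of tissue (horizontal axis), as points with 95% Poisson intervals. Csf1r in RPE-like nuclei (248 to 291 CPM) and Csf1 in fibroblast-like nuclei (182 to 201 CPM) overlap in all pieces, whereas Cx3cr1 ranges between 92.15 and 412 CPM.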

How the data were processed

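The expression matrix deposited by the authors holds raw UMI counts per gene and nucleus barcode; the deposited position table holds chip coordinates in other units, without a stated length. Tools named without roles in the submitters' processing notes are STAR, fastp and Seurat 4.1.1, with mm10; the sources used here give no annotation, strand or intron setting.

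Nuclei with at least 200 genes and under 10% mitochondrial UMIs were kept (355 to 291939 UMIs each, 54624032 in all). Scrublet marked 0 nuclei, which allows up to 0.0178% and is below the 0.5% taken as a sign of a working call, so doublets remain. Counts were normalised to 10000 per nucleus, and Leiden clustering (resolution 1, with 15 neighbours on 30 principal components of 2000 variable genes) gave 39 clusters, with the 10 genes and the pathway lists left out (26 of the variable genes) except markers. Sub-clusters used resolution 0.5. The 6 unnamed clusters held 1532 nuclei.

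The 10 genes and the lists were chosen with earlier results of these data known. A cluster took a name when at least 3 markers were 2-fold up, 1 of them among its 50 leading genes, its mean marker log2 fold over other nuclei (offset 5 CPM) passed 0.8 and that of the next list was under 0.6 of it. A cluster with endothelial and pericyte lists as its close top scores was called mixed vascular, and sub-clusters needed most of the listed markers. These thresholds, the pieces (linked within 400 units), the finer and the vascular sub-clusters, the 12-marker check of RPE-like nuclei, the positions of ligand sources and the motifs were set after the data had been seen. Named genes are the 10 genes, up to 4 class-high genes of each list, by ratio of interval ends, and the 3 genes most like Csf1r, Csf1 and Il34 by Pearson correlation of log levels over classes, among genes with at least 200 UMIs; leading genes and markers beside a result were chosen after their values were seen. Some genes of the lists are counted but not reported by name here.

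Intervals are exact (Poisson, Clopper-Pearson) at 95%, and a count of 0 is given a floor of 3 counts. No test was run, because 1 library has no replicates. Alternatives covered clustering, filters, thinning, totals and the rule of 3 times. Positions and promoters are from RefSeq's GRCm38.p6, matched by symbol. Tools were scanpy 1.11.5, igraph 0.11.9, scikit-learn 1.9.0, scipy 1.17.1, anndata 0.12.19, matplotlib 3.10.9, pandas 2.3.3 and numpy 2.4.6 under python 3.11.15.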

Additional observations from a re-analysis of the deposited data

How the results depend on the processing

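Of 61 alternatives over 7 results, 39 left the value within its interval or count range and 22 moved it. Apart from fewer UMIs after thinning, a stricter rule and changed totals or members of a class, the cause was not tested. Csf1r stayed highest in microglia or macrophage-like, Csf1 in fibroblast-like and Il34 in mixed vascular nuclei under every clustering, filter and thinning tried. For the reduced totals and the mean per nucleus only levels were recomputed, so the highest class was not tested there. The level of Csf1 in fibroblast-like nuclei became 237.7 CPM at resolution 0.5, 212.3 CPM at resolution 2, 238.8 CPM with at least 500 genes, 239.7 CPM with the list genes kept for clustering, 231.7 CPM with 15 components, 238.3 CPM with nuclei thinned to 500 UMIs and 220.1 CPM with totals without mitochondrial genes and Gm42418. Il34 in mixed vascular nuclei fell to 127.0 CPM at resolution 0.5 and 88.47 CPM with 15 components, where that class grew to 866 and 804 nuclei, and was 275.3 CPM with the list genes kept, 292.1 CPM when averaged per nucleus, 261.3 CPM with the reduced totals and 256.3 CPM without the 5% of nuclei with the highest doublet scores. Il34 was not class-high at either other resolution, with 15 components, with at least 500 genes, thinned, or under the rule of 3 times. Csf1r in microglia or macrophage-like nuclei was 876.9 CPM at resolution 2, 828.3 CPM thinned, 852.6 CPM with the reduced totals and 833.6 CPM without T cell-like and B cell-like nuclei; in RPE-like nuclei it was 326.8 CPM with the reduced totals. Class-high genes numbered 4 under the rule of 3 times and 1 (Csf1r) when thinned, where few UMIs remain. With at least 500 genes, Lgals3 was class-high in microglia or macrophage-like nuclei too, making 7. The share with retinal surroundings was 47.88% over 50 neighbours. The alternatives without doublet scores or lymphocyte-like nuclei, and those of Csf1r in RPE-like nuclei, were chosen after seeing the data. In the 25 microglia-like nuclei, Cd68 and Itgax rest on 5 and 3 UMIs. No paired analysis was possible because neither library was given a group.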
